A study of Mus musculus with 8 samples.

Results

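Class I antigen processing and the immunoproteasome were followed through 10 genes: the inducible proteasome subunits Psmb8, Psmb9 and Psmb10, the peptide transporter genes Tap1 and Tap2, the loading factor Tapbp, the light chain B2m, the heavy chains H2-K1 and H2-D1, and the transactivator Nlrc5. They were chosen by name from the gene annotation of the arrays, which carry 14 probes for them among 39429 probes for 30028 genes. All 10 genes and 13 of the 14 probes were well above background on 4 or more of 8 arrays, as were 19994 genes in all. The second Psmb9 probe was above background on 0 of 8 arrays and was not used.

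The study profiled RNA labelled as pancreatic beta cells from C57BL/6 mice that were fed a high-fat diet or a chow control diet, with 4 biological replicates each. Each sample had 1 one-colour Agilent array (Cy3), and no other treatment, age or genotype is given in the labels. The method of cell isolation was not stated in these sources. The arrays lay on 2 slides scanned in separate sessions, each with 2 arrays of each diet. High-fat replicates 1 and 2 and control replicates 1 and 2 were on slide 1, and the others on slide 2.

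Nearly all nucleated cells cut cytosolic proteins into peptides with the proteasome. Interferon exchanges its catalytic subunits Psmb6, Psmb7 and Psmb5 for Psmb9, Psmb10 and Psmb8, and the product is called the immunoproteasome. The peptides cross into the endoplasmic reticulum through the Tap1 and Tap2 transporter, are loaded with help from tapasin, the product of Tapbp, and are shown at the surface by a heavy chain bound to beta-2-microglobulin. In islets this pathway is known mainly from autoimmune diabetes, in which CD8 T cells recognise beta cell peptides on class I molecules.

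The genes lie close together in part. On the chromosome, 7 of the 10 were on chromosome 17, in the order Psmb9, Tap1, Psmb8 and Tap2 within the class II region, with Tapbp, H2-K1 and H2-D1 elsewhere on it. B2m is on chromosome 2, and Psmb10 and Nlrc5 are on chromosome 8. The measured sequences of the subunits with the lowest diet difference were the following probes, on mm9 at chr17:34337771-34337830 (plus strand) for Psmb8 and chr17:34319174-34319233 (minus strand) for Psmb9. They are shown because the diet comparison of those genes rests on 1 probe each.
Psmb8 probe: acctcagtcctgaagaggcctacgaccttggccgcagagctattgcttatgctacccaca
Psmb9 probe: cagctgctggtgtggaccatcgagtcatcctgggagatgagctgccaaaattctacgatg
Neither shares more than 13 bases in a row with a probe for another gene on the array. For H2-K1, 2 of its 3 probes share longer runs. The pair below shares the 22 bases in capitals. The first shares 19 bases in a row with a probe that has no gene name on the array, and the second, at chr17:34133984-34134043 on the minus strand, shares 29 with a probe for the nonclassical gene H2-T23. The array annotation gives the first no position.
H2-K1 probe without a position: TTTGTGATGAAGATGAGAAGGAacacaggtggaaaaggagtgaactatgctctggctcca
H2-K1 probe with a position: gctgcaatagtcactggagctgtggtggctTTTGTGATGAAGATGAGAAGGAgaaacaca
Whether these 2 probes also bind transcripts of other genes was not tested, and H2-K1 is represented below by its remaining and brightest probe, which shares at most 14 bases in a row with another gene's probe.

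Promoter windows of RefSeq (GRCm38.p6), from 250 bases before to 50 after the annotated start, were found for 8 of the 10 genes. Each window was searched on both strands for GGGATTCCC (the NF-kB enhancer of class I genes), GAAA repeated after any 2 bases (the core of the interferon response element), TTCNNNGAA (the STAT element) and ATTGG (the inverted CCAAT box). A set of 4 windows is printed because their genes had the highest correlation among the 10 (Psmb8 and Psmb9) or encode the heavy chains, with every match in capitals.
Psmb8 at chr17:34197945-34198244, plus strand: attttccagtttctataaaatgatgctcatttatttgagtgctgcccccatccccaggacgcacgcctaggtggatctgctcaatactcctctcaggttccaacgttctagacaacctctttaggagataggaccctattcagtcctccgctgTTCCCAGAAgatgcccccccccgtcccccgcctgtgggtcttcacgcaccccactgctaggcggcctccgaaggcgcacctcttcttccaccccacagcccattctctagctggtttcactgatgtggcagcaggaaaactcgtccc
Psmb9 at chr17:34187281-34187580, minus strand: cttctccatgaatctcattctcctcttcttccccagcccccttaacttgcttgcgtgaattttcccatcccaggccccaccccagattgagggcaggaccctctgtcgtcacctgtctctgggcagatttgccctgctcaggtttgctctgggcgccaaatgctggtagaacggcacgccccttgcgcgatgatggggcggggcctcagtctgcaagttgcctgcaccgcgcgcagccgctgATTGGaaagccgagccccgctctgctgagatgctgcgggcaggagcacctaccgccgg
H2-K1 at chr17:34000298-34000597, minus strand: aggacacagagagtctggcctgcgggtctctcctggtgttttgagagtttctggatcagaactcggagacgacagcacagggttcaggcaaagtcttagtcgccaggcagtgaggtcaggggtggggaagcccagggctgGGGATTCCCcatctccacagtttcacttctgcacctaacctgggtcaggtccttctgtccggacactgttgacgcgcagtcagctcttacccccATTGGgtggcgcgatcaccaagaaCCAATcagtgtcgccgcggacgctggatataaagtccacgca
H2-D1 at chr17:35262844-35263143, plus strand: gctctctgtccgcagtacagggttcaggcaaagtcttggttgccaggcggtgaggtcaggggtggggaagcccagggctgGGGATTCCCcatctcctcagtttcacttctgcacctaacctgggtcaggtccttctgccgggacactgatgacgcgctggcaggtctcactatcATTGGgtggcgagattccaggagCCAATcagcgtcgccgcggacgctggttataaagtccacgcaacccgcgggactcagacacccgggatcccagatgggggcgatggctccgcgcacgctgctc
The NF-kB letters were found in H2-K1 and H2-D1 and in 0.353% of 32851 RefSeq windows of the same length. The letters were known from class I promoters, so finding them there is no result. The STAT letters occurred in Psmb8 (8.30% of windows), the interferon letters in B2m (3.44%) and the CCAAT letters in 6 of the 8 windows (37.4%). H2-K1 and H2-D1 share a run of 47 bases. The windows of Psmb9 and Tap1 overlap over 275 of 300 bases on opposite strands, so those genes share most of 1 window. A match describes letters in a window and not a bound site. Only these exact letters were searched, so a window without a match can still hold a variant of the element.

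**Figure D1:**
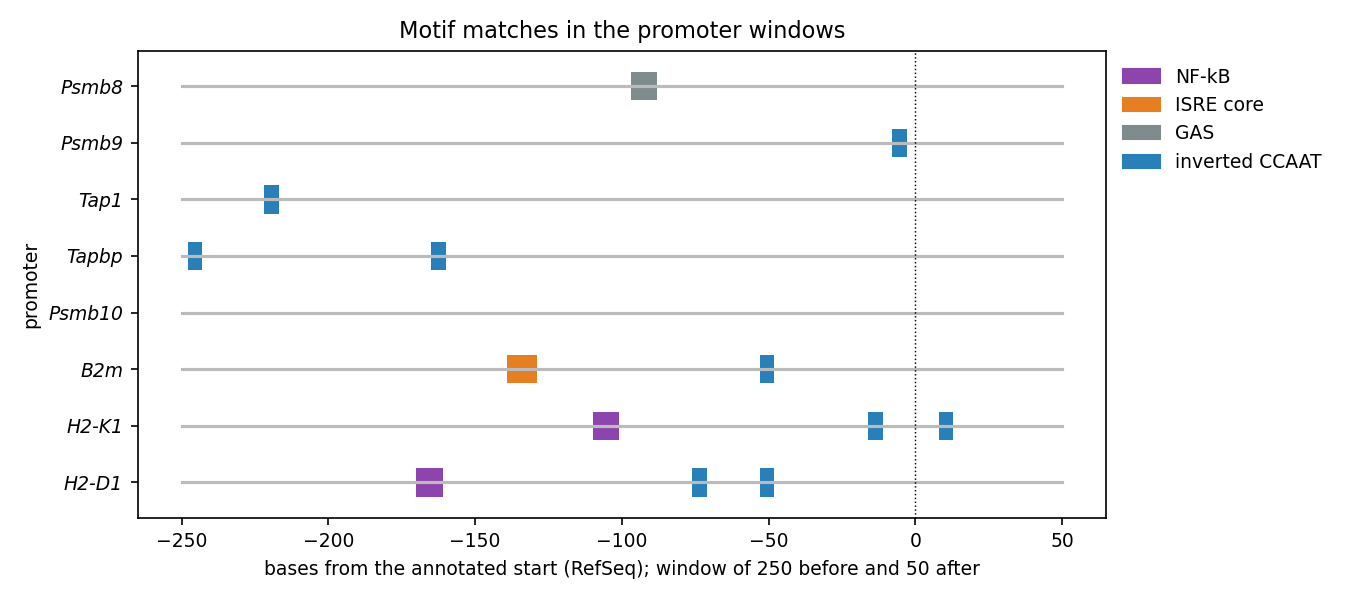
Matches of 4 motifs in the RefSeq promoter windows of 8 class I antigen processing genes. Each grey line is 1 window, the horizontal axis gives bases from the annotated start (dotted line), and the coloured bars are matches on either strand. H2-K1 and H2-D1 hold the same motifs in the same order by position, Psmb8 holds 1 STAT match, and the Psmb10 window holds none of the 4. Only the exact letters were searched, and variants of an element were not.

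Levels are given as log2 signal relative to the 75th percentile of the array, which ranged from 335.8 to 715.4 intensity units, and differences are high-fat minus control with their standard error from limma. Between 63.6% and 68.6% of the 43020 spots of an array were above background. The labels call the samples biological replicates without naming animals, so p-values measure the spread between these samples. On both slides the high-fat arrays were at positions 2 and 4 and the control arrays at positions 1 and 3, so position and diet cannot be told apart. Markers of beta cells were bright: Ins1 had a log2 level of 8.28 ± 0.32 in high-fat samples and 8.25 ± 0.26 in control samples (SD, n = 4 each), and all 10 beta cell markers were above background on all arrays. Transcripts of other pancreatic cells were also present, since all 10 acinar markers and the hormones glucagon and somatostatin were above background on all 8 arrays. The mean log2 level of the acinar markers was 7.43 in high-fat and 7.31 in control samples. That of the 10 beta cell markers was 5.09 and 5.17. The lists hold different genes and probes, so these means do not compare amounts of the cell types. The share of RNA from each cell type was not tested. In such samples fewer cells of a type and less RNA per cell cannot be told apart.

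No class I gene passed the adjusted threshold of 0.05 in limma, and neither did any of the 19994 genes tested (0%). Among the 10 genes, 3 had a lower signal on the high-fat diet at an unadjusted p under 0.05, where 3.27% of all genes did: Psmb9, Psmb8 and Nlrc5. That count uses the p of limma, and by an exact permutation test Psmb9 alone of these was under 0.05. With slide as a block, and also with the replicate number as a block, the 3 genes were Psmb9, Psmb8 and Tap2, and Nlrc5 was not among them. Of all genes, 3.71% were lower at that level with the slide block and 5.28% with the replicate block. In the fit without a block, none of the 10 was higher at that level, against 2.59% of all genes. The difference was below 0 for 8 of the 10 genes, against 49.8% of all genes tested. The median difference of the 10 was -0.26, beside 0.00093 over all genes. On the 2 slides the signs of the difference were opposite for Psmb10, Tap1, B2m and H2-D1, 4 of the 10, against 47.3% of all genes. Without high-fat replicates 1 and 3, which stood lowest in leukocyte markers, Psmb9 alone kept an unadjusted p under 0.05 and the median difference was -0.11. Of all genes, 5.82% were lower at that level in that setting. That setting was chosen after seeing the data, and those arrays were also the lowest high-fat arrays for Psmb9, Psmb8 and Nlrc5.

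Psmb9 (LMP2), the subunit with the caspase-like position in the immunoproteasome, showed the smallest p of the 10. Its level was 0.24, 0.53, -0.03 and 0.40 in high-fat replicates 1 to 4, and 0.91, 1.06, 1.07 and 0.67 in control replicates 1 to 4. Every high-fat value lay under every control value, a gap that 1.65% of all genes had. The means were 0.29 ± 0.24 in high-fat and 0.93 ± 0.19 in control samples (SD, n = 4 each), a difference of -0.64 ± 0.15, or 1.56-fold lower on the log2 scale converted back. The exact permutation p was 0.0286 (two-sided), the smallest that 4 against 4 samples can give, and the adjusted p of limma was 0.519. Within slide 1 the samples differed by -0.60 and within slide 2 by -0.69.

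Psmb8 (LMP7), the subunit with chymotrypsin-like activity, stood at 0.05, 0.67, 0.01 and 0.75 in high-fat samples and at 1.06, 1.07, 0.78 and 0.73 in control samples. High-fat replicate 4 lay above control replicate 4, and replicates 1 and 3 were far below all others. The difference was -0.54 ± 0.20, with means of 0.37 ± 0.40 in high-fat and 0.91 ± 0.18 in control samples (exact permutation p = 0.0571, adjusted p = 0.791). It was -0.71 on slide 1 and -0.37 on slide 2. Without high-fat replicates 1 and 3 it was -0.20 ± 0.16 (limma adjusted p = 0.717).

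Psmb10 (MECL-1), the trypsin-like subunit, gave no diet difference beyond its spread. Its levels were 4.55, 4.01, 3.02 and 3.40 in high-fat samples and 3.14, 3.66, 4.55 and 3.55 in control samples, so the groups covered the same range. The difference was 0.02 ± 0.39 (adjusted p = 0.995). By slide the signs were opposite, 0.88 on slide 1 and -0.84 on slide 2, and the interaction of diet and slide, which was fitted for all 10 genes and is given for the 2 with an unadjusted p under 0.05, was -1.72 ± 0.54 (limma adjusted p = 0.709). Across all genes 6.85% had an interaction at that unadjusted level, and 0% after adjustment.

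The constitutive counterparts gave higher means on the high-fat diet without passing any test. The differences were 0.18 ± 0.13 for Psmb5, 0.17 ± 0.12 for Psmb6 and 0.03 ± 0.14 for Psmb7 (adjusted p of 0.923, 0.923 and 0.981). Of 8 genes for proteasome activators and assembly factors, 3 were below 0 and 5 above, and none had an unadjusted p under 0.05.

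Tap1 and Tap2 encode the subunits of the peptide transporter, and both had lower means on the high-fat diet without passing the test. Tap1 read -2.76, -2.57, -2.55 and -2.36 in high-fat samples, and -1.78, -1.95, -2.64 and -2.33 in control samples. Control replicates 1 and 2 were higher than the rest, and both came from slide 1. The difference was -0.39 ± 0.20 (adjusted p = 0.867), and it was -0.80 on slide 1, 0.03 on slide 2 and -0.25 without control replicate 1. The interaction with slide was 0.82 ± 0.24 (limma adjusted p = 0.709).

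Tap2 read 2.58, 2.79, 2.16 and 2.13 in high-fat samples and 2.81, 2.87, 2.64 and 2.51 in control samples. Its difference was -0.29 ± 0.17 (adjusted p = 0.905). Slide 2 was lower than slide 1 by a difference of -0.40 ± 0.10 (limma adjusted p = 0.0949), with means of 2.36 on slide 2 and 2.76 on slide 1. Between slides, 3.4% of all genes passed the adjusted threshold and 19.1% the unadjusted one, while 0 of the 10 class I genes passed the adjusted one and Tap2 alone the unadjusted one. Tapbp, whose product tapasin holds class I molecules at the transporter, showed -0.07 ± 0.11 (adjusted p = 0.953).

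Of 12 other genes for peptide loading and trimming, 10 were above 0 and 2 below, where 49.8% of all genes were below. The chaperone calreticulin (Calr) alone had an unadjusted p under 0.05, and 2.59% of all genes were higher at that level. Calr was 3.85, 4.19, 4.10 and 4.19 in high-fat samples and 3.64, 3.92, 3.59 and 3.81 in control samples, a difference of 0.34 ± 0.13 (exact permutation p = 0.0571, adjusted p = 0.776).

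The light chain gene B2m showed unequal spread. Its levels were 2.47, 3.15, 3.03 and 3.74 in high-fat samples, with an SD of 0.52, and 3.28, 3.36, 3.32 and 3.33 in control samples, with an SD of 0.033. High-fat values lay on both sides of the narrow control range. The mean difference was -0.23 ± 0.24 (adjusted p = 0.936), with -0.51 on slide 1 and 0.06 on slide 2. It was -0.017 without high-fat replicate 1 and -0.44 without high-fat replicate 4.

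The heavy chain genes gave differences near 0. H2-K1 had 4.77, 5.16, 4.78 and 5.20 in high-fat samples and 4.74, 5.11, 5.04 and 4.91 in control samples, with a difference of 0.03 ± 0.15 (adjusted p = 0.985). Its other 2 probes, the ones printed above, gave -0.07 ± 0.15 and -0.10 ± 0.19. H2-D1 had 4.24, 4.71, 4.43 and 4.41 in high-fat samples and 4.67, 4.80, 4.20 and 4.52 in control samples, with a difference of -0.10 ± 0.16 (adjusted p = 0.956). For H2-K1 the standard error of 0.15 on the log2 scale means that a modest difference in either direction could not be told from 0.

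Of 17 other class I-like and nonclassical genes measured, 14 were below 0, as were 49.8% of all genes, and 3 of these had an unadjusted p under 0.05, where 3.27% of all genes did. They were Hfe (-0.36 ± 0.10, adjusted p = 0.648), an iron regulator, and the nonclassical presenting molecules Cd1d1 (-0.57 ± 0.17, adjusted p = 0.685) and Mr1 (-0.48 ± 0.16, adjusted p = 0.745). None of these passed the adjustment in limma.

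Nlrc5, which in other settings switches on class I genes, has 2 probes that disagree in direction. The one with the higher mean level, by a narrow margin, stood for the gene and gave -4.23, -3.76, -4.03 and -2.80 in high-fat samples and -2.52, -3.07, -2.35 and -3.50 in control samples. High-fat replicate 4 lay among the control values and the other 3 below them. The difference was -0.84 ± 0.36 (exact permutation p = 0.114, adjusted p = 0.842), with -1.20 on slide 1 and -0.49 on slide 2. Its size depended on the processing: it was -0.13 in the deposited table, -0.32 with normexp without high-background spots, -0.32 as the mean of both probes and 0.22 with normexp on all spots. The other probe, at chr8:97030478-97030624 on the plus strand of mm9, spans 147 genome bases and gave 0.19 ± 0.19 (adjusted p = 0.924). Both probes were dim, at 19.4 to 56.8 intensity units in high-fat and 39.5 to 124.5 in control samples for the first, and 28.9 to 58.9 in high-fat and 37.4 to 60.9 in control samples for the second.

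Among 15 transcription regulators of class I genes, 12 were below 0, as were 49.8% of all genes, and 0 passed an unadjusted p of 0.05. Irf1, an interferon-responsive activator, was closest with -0.25 ± 0.11 (exact permutation p = 0.0571, adjusted p = 0.842). Rfx5, part of the factor complex on class I and class II promoters, showed -0.17 ± 0.26. Among 37 interferon-stimulated genes, 29 were below 0 and 4 had an unadjusted p under 0.05, all lower, where 3.27% of all genes did: Ifih1, Parp14, Cd274 and Gbp7, with differences of -0.41, -0.37, -0.28 and -0.58. On slide 1 the mean difference of these 37 was -0.48 and on slide 2 it was 0.13.

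**Figure D2:**
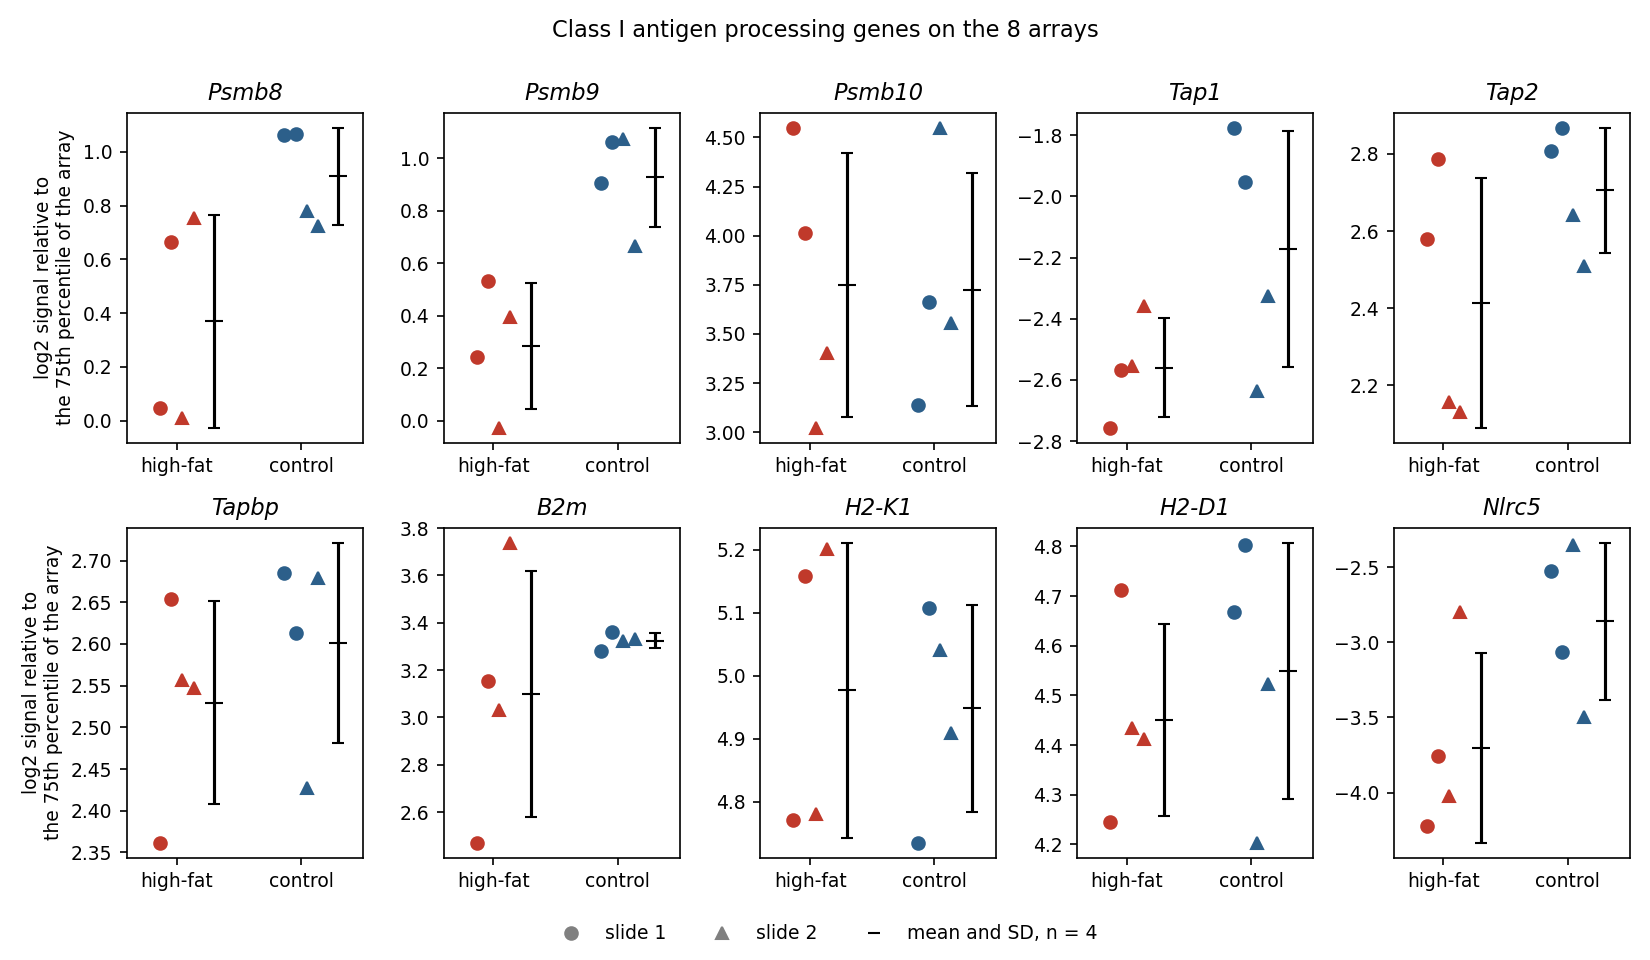
Log2 signal of each gene on every array, relative to the 75th percentile of the array, with high-fat samples (red) left of control samples (blue). Circles are slide 1, triangles are slide 2, and black bars give the mean and SD of 4 samples. Psmb9 is the one gene whose high-fat samples all lie below the control samples, and the B2m controls have an SD of 0.033.

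**Figure D3:**
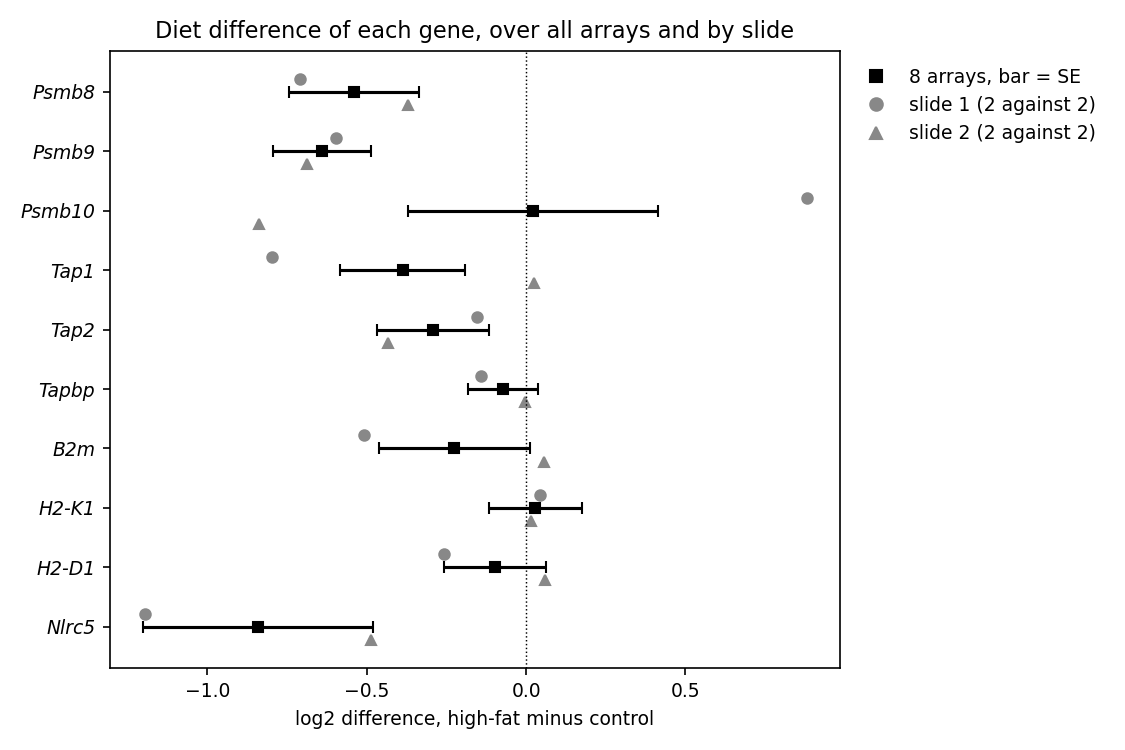
Log2 difference, high-fat minus control, for each gene. Squares with bars are the difference over all 8 arrays and its standard error, circles and triangles the difference within slide 1 and slide 2. Psmb8, Psmb9, Tap2 and Nlrc5 lie left of 0 on both slides, and Psmb10 lies at 0.88 on slide 1 and -0.84 on slide 2.

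The genes were compared with each other across the 8 arrays, each by the probe that stood for it. Of 45 pairs, 37 had a Pearson r above 0, with a median of 0.36. Without Psmb10 it was 34 of 36 pairs with a median of 0.49, and Psmb10 itself was positive with 3 of 9. The highest r was between Psmb8 and Psmb9, at 0.87 (exact permutation p = 0.0040, adjusted over 45 pairs 0.181), with Spearman's rho at 0.86 (exact permutation p = 0.011, adjusted 0.314). The Pearson r was 0.66 without high-fat replicates 1 and 3, the arrays farthest from the median of Psmb8. No pair passed after adjustment, and 9 did before it. All pairs share the same arrays and their scaling, and the permutations mixed the arrays of both diets.

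**Figure D4:**
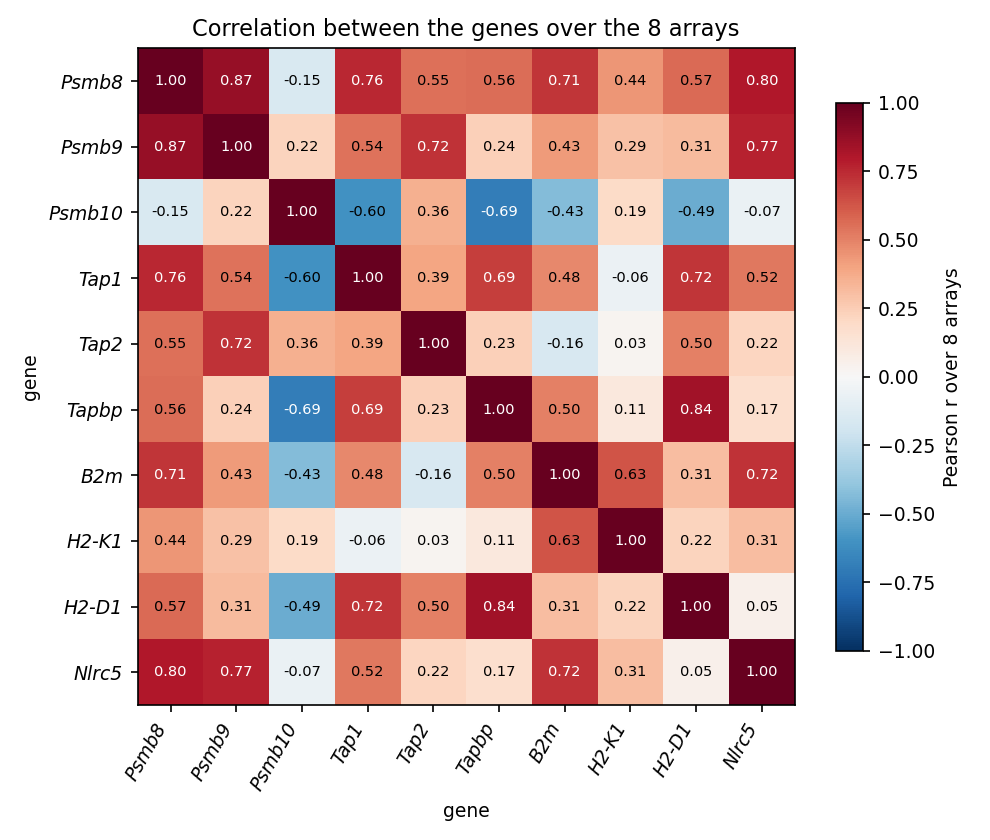
Pearson correlation between the genes over the 8 arrays, each gene by the probe that stood for it. The other Nlrc5 probe was left out. Psmb8, Psmb9 and Nlrc5 had values from 0.77 to 0.87 with each other, and Psmb10 was negative with 6 of the other 9 genes, the lowest being Tapbp at -0.69.

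Markers of other cell types moved with some of these genes. Over all genes, 49.8% were below 0 in the diet comparison and 3.27% were lower at an unadjusted p under 0.05. Pan-leukocyte markers were all below 0 in the diet comparison (5 of 5, 1 at an unadjusted p under 0.05), and their summed linear level was 1.47 to 4.71 in high-fat and 3.44 to 6.41 in control samples. Of 12 macrophage markers, 11 were below 0, 0 of them at an unadjusted p under 0.05. Their summed linear level, to which bright markers add most, was 20.4 to 25.3 in high-fat and 25.7 to 32.4 in control samples. Their mean log2 level was -0.71 to 0.14 in high-fat and -0.17 to 0.59 in control samples, which overlapped, and for 0 of the 12 did all high-fat samples lie below all control samples, as for 1.65% of all genes. Lymphocyte markers were below 0 for 11 of 14, and Cd3g was above background on 1 of 4 high-fat and 4 of 4 control arrays. The background filter could be met by the control arrays alone, as it was for Cd3g, so the direction of Cd3g is no support for a diet difference. Ptprc (CD45), which marks all leukocytes, differed by -0.66 ± 0.31. Of the endocrine markers, 4 of 6 for alpha cells and 4 of 4 for delta cells were lower at an unadjusted p under 0.05, and 0 passed after adjustment in limma. High-fat replicates 1 and 3 were lowest in leukocyte, macrophage and lymphocyte markers. Without those 2 arrays the differences were -0.20 for Psmb8, -0.46 for Psmb9 and -0.42 for Nlrc5. The same 2 arrays were the lowest high-fat arrays for each of these genes. Leaving them out therefore had to bring each difference nearer to 0, whatever the markers did. The part of the markers themselves in the results for these genes was not tested.

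The class I genes were set against the mean log2 level of 11 cell type marker lists, which gave 110 relations across 8 arrays, a family chosen after seeing the data. Nlrc5 enters by the probe that stood for it. Its other probe, which differed by diet in the opposite direction, was not set against the lists. After adjustment 0 Pearson values and 1 Spearman value passed, and 18 Pearson values had an unadjusted p under 0.05. Psmb8 and the macrophage list had r = 0.93 (exact permutation p = 0.0015, adjusted 0.0805) and rho = 0.88 (exact permutation p = 0.0072, adjusted 0.196). Nlrc5 and the pan-leukocyte list had r = 0.89 (exact permutation p = 0.0033, adjusted 0.120), and Psmb9 and the same list had r = 0.88 (exact permutation p = 0.0047, adjusted 0.129). Without high-fat replicates 1 and 3 these r values were 0.75, 0.77 and 0.64. For Psmb8 with pan-leukocyte markers r was 0.88, and 0.36 without those 2 arrays, so that relation rests on them. With the lymphocyte list r was 0.87 for Psmb8, 0.77 for Psmb9 and 0.83 for Nlrc5. Without those 2 arrays the lymphocyte values were -0.21, 0.06 and 0.69. The delta cell list had r = 0.75 with Psmb9 (exact permutation p = 0.041, adjusted 0.253). It had r = 0.71 with Nlrc5 and 0.63 with Psmb8, both with an unadjusted p over 0.05. Without high-fat replicate 2 and control replicate 4, the arrays farthest from the median of that list, these r values were 0.93, 0.90 and 0.82. Each slide holds 4 arrays, as does each diet, too few for a correlation within a slide or a diet. The permutations mixed the arrays of both diets, so a diet shift shared by a gene and a list adds to r. The macrophage list, like Psmb8, had a lower mean in high-fat than in control samples (-0.30 against 0.16). How far such relations hold within a diet was not tested.

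Psmb10 was closest to acinar markers, of which 8 of 10 were above 0 in the diet comparison, where 49.8% of all genes were below. None of these markers had an unadjusted p under 0.05. Their summed level was 2310 to 3980 in high-fat and 1930 to 3727 in control samples. For Psmb10, r with the mean of 10 acinar genes was 0.95 (exact permutation p = 0.0006, adjusted 0.0682), and rho was 0.98 (exact permutation, adjusted 0.0437). The r was 0.998 without control replicate 1 and high-fat replicate 1, the 2 arrays farthest from the median of the acinar mean. The acinar mean was 7.86, 7.56, 7.03 and 7.28 in high-fat replicates 1 to 4 and 6.72, 7.38, 7.84 and 7.32 in control replicates 1 to 4. The 8 arrays ranked alike for Psmb10 and for the acinar mean except for the lowest 2. The acinar mean also differed between diets by 0.67 on slide 1 and -0.42 on slide 2, and its part in the Psmb10 result was not tested. Neighbouring genes on chromosome 8, the digestive protease Ctrl and the cholesterol acyltransferase Lcat, had r values of 0.93 each with Psmb10, chosen for their place beside it. Ctrl was bright, with means of 8.05 in high-fat and 7.89 in control samples. Lcat was dim, at -4.50 and -4.82, which limits what its r can show. The 5 genes whose profiles were most like Psmb10 were Slc39a5, Nr5a2, Aldh1l1, Pacsin3 and the elastase Cela2a, a member of the acinar list, with r from 0.98 to 0.99, given as a description without a test.

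**Figure D5:**
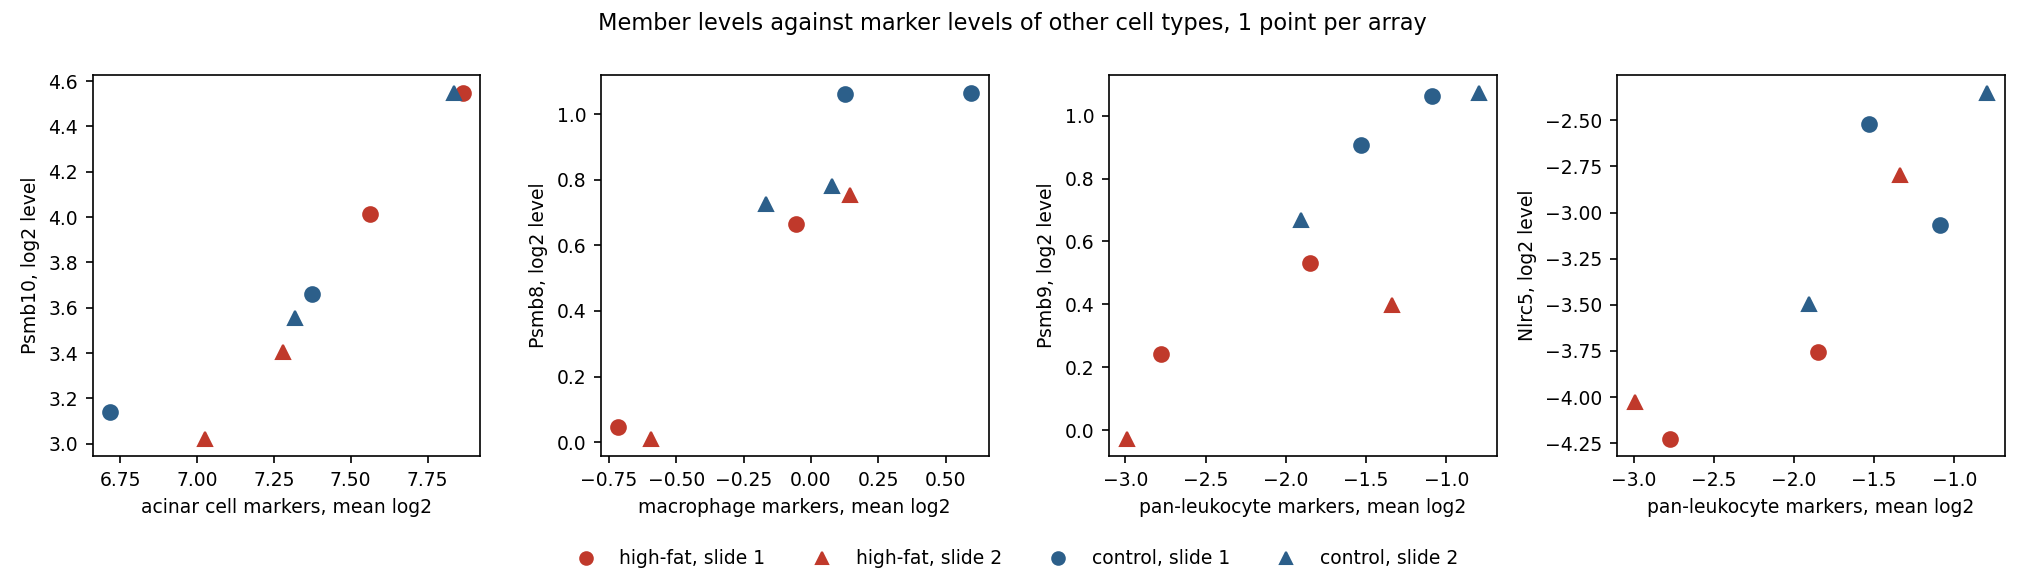
Level of a class I gene (vertical, log2) against the mean log2 level of a marker list (horizontal), 1 point per array. Red is high-fat and blue control, circles slide 1 and triangles slide 2. Nlrc5 is shown by the probe that stood for it, and its other probe was not set against the lists. The 4 panels were picked from 110 relations for their high r and are not the 4 highest. Psmb8 with the pan-leukocyte list (r = 0.88, and 0.36 without high-fat replicates 1 and 3) is not shown. Psmb10 follows the acinar list, while high-fat replicates 1 and 3 lie lowest for the macrophage and pan-leukocyte lists.

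Outside the lists, the 5 genes with profiles most like the average of the 10 class I genes were found by Pearson r over the 8 arrays. They were ENSMUST00000103423 (0.99), Plbd1 (0.97), Cd55 (0.97), Daf2 (0.97) and ENSMUST00000103459 (0.97). The array annotation describes the first as an immunoglobulin heavy constant gamma gene and the last as an immunoglobulin heavy variable gene. Their levels, high-fat against control, were -4.47 ± 3.12 against -0.29 ± 2.04 for the first and 0.25 ± 0.84 against 1.35 ± 0.62 for Plbd1 (SD, n = 4 each). Daf2 (-3.87 against -2.56) and the last (-3.05 against -1.83) were also dim in high-fat samples. A gene can pass the background filter through the control arrays alone, which was not examined for these 5. Their r values are the highest of all genes outside the lists and are given as a description without a test. Adjusted p-values from limma ran from 0.776 to 0.879.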

How the data were processed

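RNA labelled as pancreatic beta cells from 4 high-fat and 4 control samples was measured on Agilent 1-colour arrays. Feature Extraction 11.5.1.1 made the deposited scanner files, per the file headers, which list a processed signal per spot as intensity and place probes on mm9. The deposited value table holds log2 values of 28061 probes, and the submitters' processing notes name limma without a version, so its steps, scale and centring are not known in full. Columns were matched to samples by the labels.

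The log2 intensity was scaled to each array's 75th percentile. Control and outlier spots were left out, spots of a probe were averaged, and probes well above background on 4 or more of 8 arrays were kept (26076). The brightest probe stood for a gene, which gave 19994 genes. Outlier spots were first counted in the background call. They were left out after that version's probe total differed from an earlier analysis of these data, and both versions are compared below. Diet, slide and their interaction were tested in limma 3.58.1 (R 4.3.3), with Benjamini-Hochberg adjustment over all genes. Correlations and single-gene diet differences used exact permutation, two-sided; the single-gene tests were added after the limma values were known. In a simulation on 19864 genes the diet fit recovered 55 of 100 changes of log2 size 1 and 84 of 100 of size 2, with 5 false calls. Both sizes exceed the diet difference of every class I gene over the 8 arrays, the largest being -0.84 for Nlrc5. The rates therefore do not say how often differences as small as theirs would be found. Tables and figures used Python 3.11.15, pandas 2.3.3, numpy 2.4.6 and matplotlib 3.10.9.

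The genes named are all 10 members, their constitutive counterparts, Irf1, Rfx5 and Ptprc, up to 4 genes per list by smallest p, and the 5 most alike; 1 further gene of that rule is not reported here. Ctrl, Lcat, the genes most like Psmb10, the promoter motifs and the correlations with cell type lists were added after values had been seen. A search for 2 further motifs was dropped because their letters had been read from the H2-K1 and H2-D1 windows. Members and lists were chosen with earlier results of these data known. The alternatives were background correction, scaling, filter, probe summary, eBayes settings, array weights, slide, replicate block, leaving out samples, and the deposited table.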

Additional observations from a re-analysis of the deposited data

How the results depend on the processing

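No class I gene passed the adjusted threshold for diet under any of 24 settings, of which 2 were chosen after seeing the data. Over all genes 1 passed with the deposited value table, 1 with a trended and robust eBayes, and 0 to 2 when single samples were left out. Psmb8, Psmb9 and Tap2 kept a difference below 0 in all 24 settings, Psmb9 between -0.73 and -0.45 and Psmb8 between -0.71 and -0.20. The class I genes lower at an unadjusted p under 0.05 numbered 1 to 4 when single samples were left out. Of all genes, 2.35% to 5.02% were lower at that level in those settings. Counting outlier spots in the background call gave 19995 genes and 3 such class I genes, where 3.27% of all genes were lower. Among all genes at that level, 44.2% were higher on the high-fat diet, and 66.5% with median scaling, 59.5% with normexp, 58.3% with normexp without high-background spots, 55.6% with the deposited table and 54.9% with quantile normalization. Normexp moved the median difference of all genes to 0.13 and that of the 10 class I genes to -0.50. With it the difference was -0.40 for Psmb10, 0.24 for Tap1, -0.39 for H2-K1 and 0.22 for Nlrc5, and the Tap1 interaction with slide was -0.56. Without spots of high local background, 7 of them on high-fat replicate 2, none of these 5 signs turned. Quantile normalization gave -0.041 for Psmb10 and -0.11 for H2-K1, and median scaling gave 0.0013 for Tapbp. The deposited table gave -0.034 for Psmb10 and -0.14 for H2-K1, the mean of a gene's probes -0.045 for H2-K1, and array weights -0.069 for Psmb10. On slide 2 alone the values were -0.84 for Psmb10, 0.025 for Tap1, 0.057 for B2m and 0.060 for H2-D1. Without high-fat replicates 1 and 3 they were -0.017 for Psmb10, 0.12 for B2m and 0.013 for H2-D1, and the median of the 10 was -0.11. Leaving out single samples gave -0.25 to 0.30 for Psmb10, -0.045 to 0.098 for H2-K1, -0.44 to -0.017 for B2m, -0.54 to -0.25 for Tap1, -0.13 to -0.016 for Tapbp, -0.21 to -0.014 for H2-D1 and -1.14 to -0.67 for Nlrc5. The cause of these turns was not tested.

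The slide difference of Tap2 passed with the deposited table (-0.42, limma adjusted p = 0.017) and with array weights (-0.41, limma adjusted p = 0.019), which made the count of class I genes 1 in both. Tap2 for slide, and Psmb10 and Tap1 for the interaction, are described because their p was small. Among the others the sign turned in 25 of 180 values for slide and in 20 of 160 for the interaction, and 0 passed. The replicate numbers were not taken as pairs, since the labels name no shared source and 1 of the 4 same-numbered correlations (0.21, 0.40, -0.0041 and 0.30) was not above 0.1, although 3 of the 4 high-fat samples correlated best with their own number. A replicate block gave 0 genes past the adjusted threshold and -0.64 for Psmb9. Low signal over background limits what can be read from Nlrc5 and Tap1, and 4 arrays a diet limit all differences.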
